A study of Homo sapiens with 8 samples.

Results

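The DNA repair genes are 48 named genes of homologous recombination, the Fanconi anaemia pathway, mismatch repair, damage signalling, oxidised-base repair and end joining, picked by symbol, from a list drawn up with earlier results of these data known, among the 23686 genes listed for each library. All 48 were found, and all 48 were among the 14249 genes that passed the filter on low counts. They were placed in 6 groups of 12 (homologous recombination), 10 (Fanconi), 3 (mismatch), 9 (damage sensing and checkpoint), 9 (oxidised-base and single-strand break repair) and 5 (end joining). RNA sequencing was done on 8 libraries of the human cell lines MDA-MB-231 and HS578T, both from triple-negative breast cancer, with 2 libraries in each of 4 groups. These were MDA-MB-231 with GPX1 depleted, control MDA-MB-231, HS578T with GPX1 depleted and control HS578T. GPX1 encodes glutathione peroxidase 1, an enzyme that uses glutathione to clear hydrogen peroxide. The depleted libraries carry the prefix siGpx1 in their titles, although their genotype tag reads Gpx1-/-. For the time after depletion, the number of siRNAs and the kind of control, the labels give nothing. The source names count upward from library to library (HS578T, HS579T), while the cell line tag stays the same and was used.

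Hydrogen peroxide and its products oxidise DNA bases and break DNA strands. Glycosylases such as OGG1, MUTYH, NTHL1 and UNG cut out a damaged or wrong base, APEX1 nicks the strand there, and XRCC1, LIG3 and the PARP enzymes help to close the break. Breaks through both strands are rejoined end to end by the Ku and DNA-PK proteins, or copied from the sister chromatid by homologous recombination with BRCA1, BRCA2 and PALB2. The Fanconi proteins deal with crosslinks between the strands, and mismatch repair corrects copying errors. ATM and ATR are the kinases that report damage to the cell cycle, and many recombination and Fanconi genes are known to be transcribed mainly in S phase.

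The libraries held 12905808 to 14216365 estimated counts. GPX1 had 108 and 95 counts in siGpx1 and 2944 and 3223 in control MDA-MB-231, and 42 and 42 counts in siGpx1 and 1117 and 1074 in control HS578T, in accord with the labels of all 8 libraries. The repair genes had between 71 and 11111 counts in a library and together took 0.382 to 0.427% of it. The labels do not say that the replicates were separate cultures, so the p-values cover library-to-library spread alone, and that spread may be technical. Replicates of siGpx1 HS578T stood farthest apart (mean chi-square per gene 3.78, against 1.31 to 1.88 in the other groups). Among markers of the receptors that define other breast cancers, ESR1 and PGR were below 1 TPM in every group, while ERBB2 averaged 43.8, 40.5, 33.8 and 31.8 TPM in siGpx1 MDA-MB-231, control MDA-MB-231, siGpx1 HS578T and control HS578T. The lines are labelled epithelial. The 5 epithelial markers summed to 2750 and 2820 TPM in siGpx1 and 1760 and 1740 TPM in control MDA-MB-231, and to 934 and 1030 TPM in siGpx1 and 347 and 350 TPM in control HS578T. Of them, the keratin gene KRT18 averaged 938, 596, 949 and 322 TPM in the 4 groups and rose in both lines (0.65 ± 0.05 and 1.62 ± 0.05 on the log2 scale, adjusted p = 3.14e-08 and 1.16e-12 by edgeR). KRT8 averaged 1146, 678, 33.4 and 26.7 TPM, KRT19 657, 444, 0.20 and 0.255 TPM, EPCAM 39.3, 32.2, 0.115 and 0.11 TPM, and CDH1 was below 1 TPM in all 4 groups. The part of these marker changes in the results was not tested. The 4 mesenchymal markers summed to 3070 and 3040 TPM in siGpx1 and 2360 and 2410 TPM in control MDA-MB-231. In HS578T they summed to 25400 and 22900 TPM in siGpx1 and 19600 and 19400 TPM in control cells. Of them, VIM averaged 2782, 2167, 6716 and 5840 TPM in the 4 groups. Leukocyte markers summed to 6.91 to 14.6 TPM, almost all from CD14, with CD3E at 0.

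After GPX1 depletion the repair genes split in both directions in each line, and the changes were small. In MDA-MB-231, 45.8% of the 48 passed the test, where 42.6% of all tested genes did, and in HS578T 64.6%, where 50.7% of all tested genes did. In MDA-MB-231, 9 of 48 rose and 13 fell, which is 18.8% and 27.1% of them, where 20.7% of all tested genes rose and 21.9% fell. In HS578T, 15 rose and 16 fell, or 31.2% and 33.3%, where 28.6% of all tested genes rose and 22.1% fell. These counts are by edgeR's quasi-likelihood test at an adjusted p under 0.05 over all genes tested. The median log2 fold change (siGpx1 over control) of the 48 was 0.01 in MDA-MB-231 and 0.03 in HS578T, beside 0 and 0.04 for all genes tested. No repair gene changed 2-fold, and an absolute log2 change of at least 0.5 was reached by 5 called genes in MDA-MB-231 and 12 in HS578T. Fewer falls in MDA-MB-231 passed when any 1 of the 4 MDA-MB-231 libraries was left out, and fewer rises in HS578T without control replicate 1. Over all tested genes, too, fewer passed in each case. Without 1 MDA-MB-231 library the median change of all tested genes in that line was 0.03 to 0.04, against 0.

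Fewer genes moved in both lines. Falls in both were found for 9 of the 48 (18.8%, where 14.3% of all tested genes fell in both), namely BRCA1, BARD1, EXO1, BRIP1, FANCE, FANCG, FANCI, MUTYH and POLQ. Rises in both were found for 8 (16.7%, where 14.9% of all tested genes rose in both), namely FANCC, FANCF, MSH6, PMS2, RAD50, PARP1, APEX1 and PRKDC. RAD54B alone passed in opposite directions, as did 0.702% of all tested genes in the same sense. Across 16 alternative settings, 4 genes kept both rises (APEX1, FANCC, PARP1 and RAD50) and 4 kept both falls (EXO1, FANCE, FANCI and POLQ). Another 13 genes passed in neither line.

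**Figure D1:**
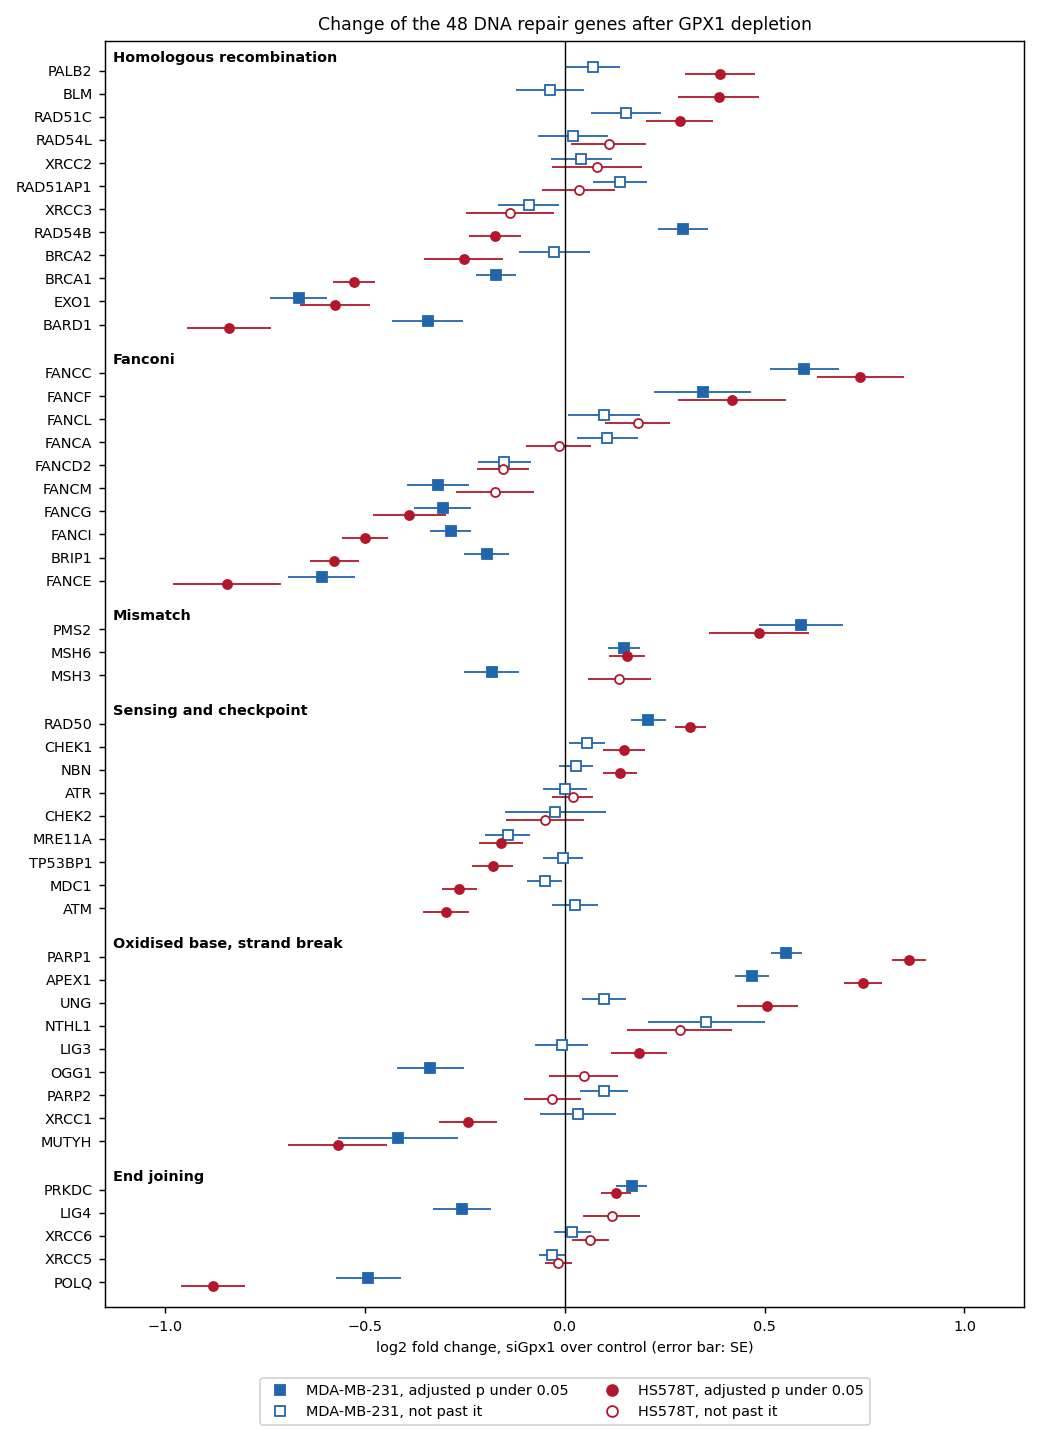
Log2 fold change of each of the 48 repair genes, siGpx1 over control, in MDA-MB-231 (squares) and HS578T (circles), with the standard error as the bar; filled symbols passed at an adjusted p under 0.05. PARP1, APEX1 and FANCC lie to the right in both lines and EXO1, FANCE and POLQ to the left, while XRCC5, XRCC6 and ATR sit near 0.

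The rises with the smallest p-values were those of PARP1 and APEX1, which act on oxidised and broken DNA. PARP1, the enzyme that marks strand breaks with poly(ADP-ribose), had 154 and 153 TPM in siGpx1 and 106 and 102 TPM in control MDA-MB-231, and 116 and 122 TPM in siGpx1 and 68.6 and 67.2 TPM in control HS578T. Both siGpx1 libraries lay above both controls in each line. The log2 change was 0.55 ± 0.04 (SE) in MDA-MB-231 and 0.86 ± 0.04 in HS578T, with adjusted p = 1.5e-08 and 1.35e-10. APEX1, the endonuclease that cuts at a site left without a base, had 252 and 252 TPM in siGpx1 and 179.6 and 182 TPM in control MDA-MB-231. In HS578T its values were 171 and 180.0 TPM in siGpx1 and 109 and 108 TPM in control cells, again with no overlap. Its log2 change was 0.47 ± 0.04 in MDA-MB-231 and 0.75 ± 0.05 in HS578T (adjusted p = 3.09e-07 and 3.27e-09).

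The glycosylases that start base repair did not move as one. UNG, which removes uracil from DNA, had 116 and 113 TPM in siGpx1 and 103 and 110.0 TPM in control MDA-MB-231 and did not pass there (0.10 ± 0.06, adjusted p = 0.175). In HS578T, where its level was lower, UNG had 36.1 and 34.3 TPM in siGpx1 and 25.9 and 25.8 TPM in control cells and rose (0.51 ± 0.08, adjusted p = 4.64e-05). The groups did not overlap in either line. MUTYH, which removes adenine paired with an oxidised guanine, fell in both lines. It had 8.0 and 8.01 TPM in siGpx1 and 9.92 and 11.6 TPM in control MDA-MB-231, and 13.1 and 14.4 TPM in siGpx1 and 19.8 and 22.6 TPM in control HS578T, with log2 changes of -0.42 ± 0.15 and -0.57 ± 0.12 (adjusted p = 0.0358 and 0.00122). The fall of MUTYH in MDA-MB-231 was lost when any 1 of that line's 4 libraries was left out. OGG1, the main glycosylase for oxidised guanine, fell in MDA-MB-231 (-0.34 ± 0.08, adjusted p = 0.00456) and was at 0.05 ± 0.09 in HS578T (adjusted p = 0.696). The OGG1 call did not hold without control replicate 2 or either siGpx1 replicate of MDA-MB-231. NTHL1, which removes oxidised pyrimidines, was at 0.35 ± 0.15 and 0.29 ± 0.13 in the lines and passed in neither (adjusted p = 0.0653 and 0.0825), although its rise passed in 6 of 16 alternative settings in MDA-MB-231 and 1 of 16 in HS578T.

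The proteins that seal single-strand breaks gave smaller values. XRCC1, the scaffold of that repair, was at 0.03 ± 0.09 in MDA-MB-231 (adjusted p = 0.825) and fell in HS578T (-0.24 ± 0.07, adjusted p = 0.0109). The XRCC1 fall did not pass without control replicate 2 or without siGpx1 replicate 1. LIG3, the DNA ligase that works with XRCC1, was at -0.01 ± 0.07 and 0.19 ± 0.07 (adjusted p = 0.955 and 0.0361), and its HS578T rise held in 2 of 16 alternative settings. PARP2, a relative of PARP1, passed in neither line, with log2 changes of 0.10 ± 0.06 and -0.03 ± 0.07. The intervals of these PARP2 values at 95% were -0.03 to 0.23 in MDA-MB-231 and -0.18 to 0.12 in HS578T.

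In homologous recombination, 1 of 12 genes rose and 3 fell in MDA-MB-231 (8.3% and 25.0%, where 20.7% of all tested genes rose and 21.9% fell). In HS578T 3 rose and 5 fell (25.0% and 41.7%, where 28.6% of all tested genes rose and 22.1% fell). BRCA1, BARD1 and EXO1 fell in both lines. BRCA1, the ubiquitin ligase that starts recombination at a break, had 29.3 and 28.4 TPM in siGpx1 and 34.1 and 31.8 TPM in control MDA-MB-231, and 23.0 and 24.0 TPM in siGpx1 and 34.2 and 33.5 TPM in control HS578T. The groups did not overlap in either line, and the log2 change was -0.17 ± 0.05 in MDA-MB-231 and -0.53 ± 0.05 in HS578T (adjusted p = 0.012 and 5.36e-07). BARD1, its obligate partner, had 18.3 and 16.2 TPM in siGpx1 and 22.2 and 21.4 TPM in control MDA-MB-231, and 9.38 and 10.2 TPM in siGpx1 and 17.5 and 19.0 TPM in control HS578T. BARD1 fell by 0.34 ± 0.09 in MDA-MB-231 and by 0.84 ± 0.10 in HS578T on the log2 scale (adjusted p = 0.00568 and 5.96e-06). BRIP1, the helicase that binds BRCA1 and is counted here with the Fanconi genes, had 23.3 and 24.8 TPM in siGpx1 and 27.5 and 27.2 TPM in control MDA-MB-231, and 14.0 and 15.0 TPM in siGpx1 and 22.5 and 22.3 TPM in control HS578T. Its log2 change was -0.20 ± 0.06 in MDA-MB-231 and -0.58 ± 0.06 in HS578T (adjusted p = 0.0094 and 9.43e-07). The HS578T calls of all 3 genes held in all 16 alternative settings. Their MDA-MB-231 calls held in 10 (BRCA1), 13 (BARD1) and 9 (BRIP1) of 16, and all 3 were lost with DESeq2. In MDA-MB-231 those of BRCA1 and BRIP1 were lost without any 1 of that line's libraries, and that of BARD1 without control replicate 1 or siGpx1 replicate 2.

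EXO1, the exonuclease that trims broken ends, fell in both lines. It had 29.5 and 30.2 TPM in siGpx1 and 47.0 and 47.0 TPM in control MDA-MB-231, and 14.4 and 17.1 TPM in siGpx1 and 23.2 and 25.5 TPM in control HS578T. No siGpx1 library reached its controls. The log2 change was -0.67 ± 0.07 in MDA-MB-231 and -0.57 ± 0.09 in HS578T (adjusted p = 1.81e-06 and 4.81e-05), and the difference between the lines was -0.09 ± 0.11 (adjusted p = 0.655).

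RAD54B, a motor protein of recombination, rose in MDA-MB-231 and fell in HS578T. It had 31.1 and 32.5 TPM in siGpx1 and 24.4 and 23.8 TPM in control MDA-MB-231, and 23.9 and 24.4 TPM in siGpx1 and 26.3 and 25.6 TPM in control HS578T. The log2 change was 0.29 ± 0.06 in MDA-MB-231 and -0.17 ± 0.07 in HS578T (adjusted p = 0.00126 and 0.036), and the difference between the lines passed (0.47 ± 0.09, adjusted p = 0.00219). The HS578T fall did not hold without any 1 of the HS578T libraries, whereas the MDA-MB-231 rise and the difference held in every setting. Exons of RAD54B are shared on the same strand with FSBP, which had 0 counts in control replicate 1 of HS578T.

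The remaining recombination genes moved in HS578T or passed in neither line. PALB2, which joins BRCA1 to BRCA2, was at 0.07 ± 0.07 in MDA-MB-231 (adjusted p = 0.434) and rose in HS578T. Its values there were 10.3 and 10.5 TPM in siGpx1 and 8.47 and 8.03 TPM in control HS578T, with no overlap, a log2 change of 0.39 ± 0.09 (adjusted p = 0.00164). BLM, the Bloom syndrome helicase, rose by 0.38 ± 0.10 (adjusted p = 0.00514) and RAD51C by 0.29 ± 0.08 (adjusted p = 0.0087) in HS578T on the log2 scale. The RAD51C libraries overlapped, at 73.7 and 85.8 TPM in siGpx1 and 69.6 and 80.4 TPM in control HS578T. Its call held in 10 of 16 alternative settings. The calls of BLM and RAD51C were both lost without control replicate 1 or siGpx1 replicate 2 of HS578T. BRCA2, which loads the recombinase, fell there (-0.25 ± 0.10, adjusted p = 0.045), and that call was lost without the same libraries. RAD51AP1, RAD54L, XRCC2 and XRCC3 passed in neither line, with log2 changes between -0.14 and 0.14, although a rise of RAD51AP1 in MDA-MB-231 passed in 5 of 16 alternative settings.

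**Figure D2:**
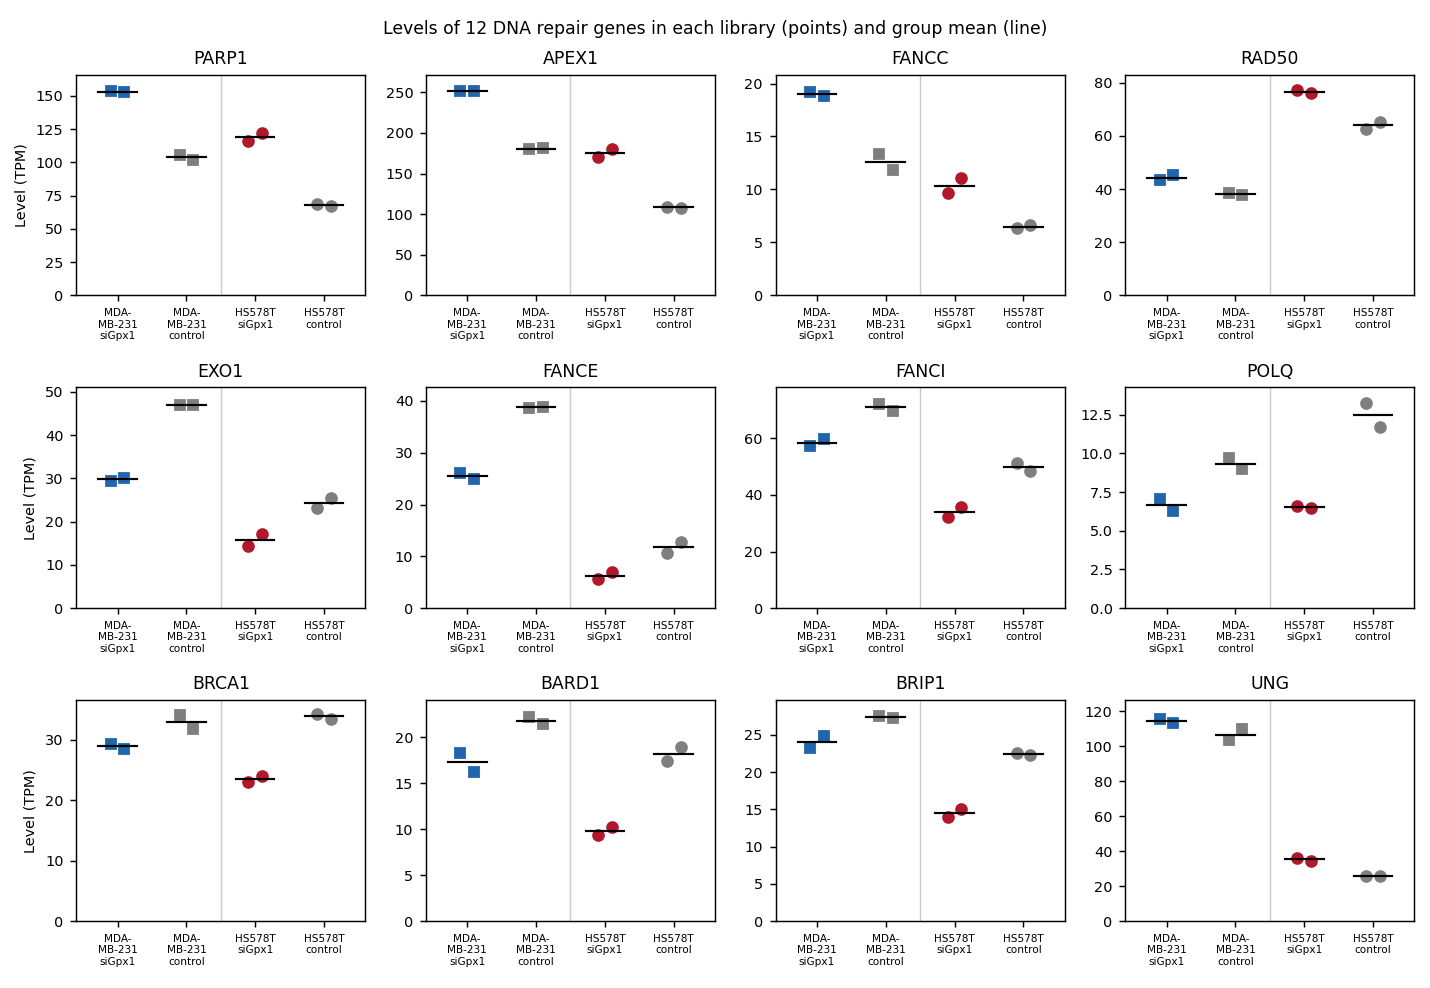
Level in TPM of 12 repair genes in each of the 8 libraries (points), with the mean of each group of 2 as a line, siGpx1 left of control in each cell line. PARP1, APEX1, FANCC and RAD50 lie higher in siGpx1 libraries of both lines; EXO1, FANCE, FANCI, POLQ, BRCA1, BARD1 and BRIP1 lie lower, with the smaller steps of BRCA1 and BRIP1 in MDA-MB-231.

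Within the Fanconi core complex, which tags FANCD2 and FANCI with ubiquitin at a crosslink, members moved in opposite directions. FANCC had 19.2 and 18.8 TPM in siGpx1 and 13.3 and 11.8 TPM in control MDA-MB-231, and 9.64 and 11.1 TPM in siGpx1 and 6.32 and 6.67 TPM in control HS578T. It rose in both lines, by 0.60 ± 0.09 and 0.74 ± 0.11 on the log2 scale in MDA-MB-231 and HS578T (adjusted p = 3.45e-05 and 3.31e-05). FANCE, the subunit that contacts both FANCC and FANCD2, had 26.1 and 25.0 TPM in siGpx1 and 38.6 and 38.9 TPM in control MDA-MB-231, and 5.59 and 6.93 TPM in siGpx1 and 10.6 and 12.8 TPM in control HS578T. Its counts in HS578T were low, at 71 and 93 in siGpx1 and 147 and 172 in control libraries, and it had the fewest of the 48 in both siGpx1 libraries. FANCE fell in both lines, with log2 changes of -0.61 ± 0.08 in MDA-MB-231 and -0.84 ± 0.14 in HS578T (adjusted p = 2.32e-05 and 7.99e-05).

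FANCF and FANCG, further core subunits, went in the directions of FANCC and FANCE. FANCF rose by 0.34 ± 0.12 and 0.42 ± 0.13 on the log2 scale in MDA-MB-231 and HS578T (adjusted p = 0.0314 and 0.0164), with 11.2 and 9.54 TPM in siGpx1 and 7.64 and 8.63 TPM in control MDA-MB-231. The FANCF calls were lost without control replicate 1 or siGpx1 replicate 1 in MDA-MB-231, and without control replicate 2 or siGpx1 replicate 1 in HS578T. FANCG fell by 0.31 ± 0.07 and 0.39 ± 0.09 on the same scale (adjusted p = 0.00266 and 0.00214), and its MDA-MB-231 call was lost without control or siGpx1 replicate 1. FANCA and FANCL, the ligase subunit, passed in neither line.

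FANCI and FANCD2 form the pair that the core complex modifies. FANCI had 57.3 and 59.6 TPM in siGpx1 and 72.2 and 69.5 TPM in control MDA-MB-231, and 32.3 and 35.6 TPM in siGpx1 and 51.4 and 48.5 TPM in control HS578T, with log2 changes of -0.29 ± 0.05 and -0.50 ± 0.06 (adjusted p = 0.000287 and 2.3e-06). FANCD2 had 27.4 and 27.2 TPM in siGpx1 and 29.7 and 30.6 TPM in control MDA-MB-231, and 29.3 and 32.9 TPM in siGpx1 and 35.4 and 36.6 TPM in control HS578T. Its siGpx1 libraries lay below the controls in both lines, but the log2 changes of -0.15 ± 0.07 and -0.16 ± 0.07 missed the threshold (adjusted p = 0.081 and 0.0587). That fall passed in 3 of 16 alternative settings in MDA-MB-231 and in 10 of 16 in HS578T. FANCM, the translocase that recruits the core complex, fell in MDA-MB-231 (-0.32 ± 0.08, adjusted p = 0.0035), though not without control replicate 2 or without siGpx1 replicate 1, and was at -0.17 ± 0.10 in HS578T (adjusted p = 0.154).

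Of the mismatch repair genes, PMS2 and MSH6 rose in both lines. PMS2, the endonuclease subunit, had 21.0 and 23.0 TPM in siGpx1 and 13.6 and 15.4 TPM in control MDA-MB-231, and 14.6 and 12.8 TPM in siGpx1 and 9.01 and 11.3 TPM in control HS578T. The log2 change was 0.59 ± 0.11 in MDA-MB-231 and 0.49 ± 0.12 in HS578T (adjusted p = 0.000294 and 0.00404), and the HS578T call was lost without control replicate 1. PMS2 has near-identical copies, of which PMS2CL, PMS2L2, PMS2P1, PMS2P3, PMS2P4 and PMS2P5 are listed in the files, so its values are uncertain. MSH6, which recognises single mispaired bases, had 145 and 147 TPM in siGpx1 and 133 and 129.9 TPM in control MDA-MB-231, and 72.8 and 78.6 TPM in siGpx1 and 70.3 and 70.9 TPM in control HS578T. Its log2 changes were 0.15 ± 0.04 and 0.15 ± 0.05 (adjusted p = 0.00738 and 0.00937), and the HS578T call held in only 4 of 16 alternative settings. MSH3, which recognises small loops, had 18.0 and 16.2 TPM in siGpx1 and 19.2 and 19.4 TPM in control MDA-MB-231, a log2 change of -0.18 ± 0.07 (adjusted p = 0.0432) that held in 3 of 16 settings. In HS578T MSH3 had 12.8 and 13.1 TPM in siGpx1 and 11.99 and 12.4 TPM in control cells and was at 0.14 ± 0.08 (adjusted p = 0.169).

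Among the damage sensors, 1 of 9 rose and 0 fell in MDA-MB-231, where 20.7% of all tested genes rose and 21.9% fell. In HS578T 3 of 9 rose and 4 fell, where 28.6% of all tested genes rose and 22.1% fell, and the difference between these counts was not tested. RAD50, the long coiled-coil protein of the complex that grips broken ends, had 43.3 and 45.4 TPM in siGpx1 and 38.6 and 37.6 TPM in control MDA-MB-231, and 77.2 and 76.1 TPM in siGpx1 and 62.6 and 65.2 TPM in control HS578T. It rose by 0.21 ± 0.04 in MDA-MB-231 and 0.31 ± 0.04 in HS578T on the log2 scale (adjusted p = 0.00104 and 6.53e-06). Its partners in that complex did not rise with it in both lines. The nuclease MRE11A was at -0.14 ± 0.06 in MDA-MB-231 (adjusted p = 0.0553) and fell in HS578T (-0.16 ± 0.06, adjusted p = 0.024), a call lost without either HS578T control. NBN was at 0.03 ± 0.04 in MDA-MB-231 (adjusted p = 0.647) and rose in HS578T (0.14 ± 0.04, adjusted p = 0.0114), a call kept in 5 of 16 settings.

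ATM, MDC1 and TP53BP1, which act in a row at double-strand breaks, fell in HS578T in all 16 settings and did not pass in MDA-MB-231. The kinase ATM had 20.4 and 21.0 TPM in siGpx1 and 20.7 and 19.8 TPM in control MDA-MB-231, and 19.9 and 17.0 TPM in siGpx1 and 23.9 and 23.0 TPM in control HS578T, with log2 changes of 0.03 ± 0.06 and -0.30 ± 0.06 (adjusted p = 0.762 and 0.000436). MDC1, the scaffold that reads the histone mark made by ATM, had 41.7 and 38.6 TPM in siGpx1 and 41.9 and 40.9 TPM in control MDA-MB-231, and 42.2 and 42.8 TPM in siGpx1 and 52.3 and 53.6 TPM in control HS578T. Its log2 changes were -0.05 ± 0.04 and -0.26 ± 0.04 (adjusted p = 0.397 and 0.00011). TP53BP1, which steers breaks towards end joining, was at -0.0038 ± 0.05 and -0.18 ± 0.05 (adjusted p = 0.982 and 0.00824). Of the checkpoint kinases, CHEK1 rose by 0.15 ± 0.05 in HS578T (adjusted p = 0.0284, held in 4 of 16 settings), while ATR and CHEK2 passed in neither line. The 95% intervals of ATR were -0.12 to 0.12 in MDA-MB-231 and -0.09 to 0.13 in HS578T.

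In end joining the polymerase POLQ fell, and the Ku proteins did not pass in either line. POLQ, which joins ends through short matching stretches, had 7.08 and 6.25 TPM in siGpx1 and 9.72 and 8.96 TPM in control MDA-MB-231, and 6.60 and 6.46 TPM in siGpx1 and 13.2 and 11.7 TPM in control HS578T. The log2 change was -0.49 ± 0.08 in MDA-MB-231 and -0.88 ± 0.08 in HS578T (adjusted p = 0.000159 and 1.94e-07), and the HS578T value was the largest fall among the 48. XRCC5 and XRCC6, the subunits of Ku, were the most abundant of the 48, with XRCC6 at 523 and 547 TPM in siGpx1 and 524 and 527 TPM in control MDA-MB-231, and 496 and 551 TPM in siGpx1 and 519.7 and 520.1 TPM in control HS578T. The 95% interval of the log2 change of XRCC6 was -0.08 to 0.12 in MDA-MB-231 and -0.04 to 0.16 in HS578T, and that of XRCC5 was -0.10 to 0.04 and -0.09 to 0.05. PRKDC, the kinase that Ku recruits, had 93.8 and 88.5 TPM in siGpx1 and 83.5 and 78.0 TPM in control MDA-MB-231, and 156 and 154 TPM in siGpx1 and 148 and 146 TPM in control HS578T. Its siGpx1 libraries lay above the controls in both lines, and it rose by 0.17 ± 0.04 and 0.13 ± 0.04 (adjusted p = 0.00229 and 0.00948), with the HS578T call held in 7 of 16 settings. LIG4, the ligase of this pathway, had 15.8 and 15.6 TPM in siGpx1 and 19.3 and 18.3 TPM in control MDA-MB-231, and 20.7 and 18.5 TPM in siGpx1 and 19.0 and 18.5 TPM in control HS578T. It fell in MDA-MB-231 (-0.26 ± 0.07, adjusted p = 0.00924), a call lost without any 1 of that line's libraries, and was at 0.12 ± 0.07 in HS578T (adjusted p = 0.185).

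Where the lines responded differently was tested as the change in MDA-MB-231 minus the change in HS578T. Of the 48 genes, 7 had a higher and 7 a lower value of this difference (14.6% each and 29.2% together, where 17% of all tested genes passed, with 6.32% of all tested genes higher and 10.7% lower). With DESeq2 size factors in edgeR the split was 9 higher and 4 lower, and over all genes 1251 higher and 1000 lower in place of 900 and 1528. The 7 higher were BRCA1 (0.36 ± 0.07, adjusted p = 0.00334), BRIP1 (0.38 ± 0.08, adjusted p = 0.00471), RAD54B, BARD1, POLQ, ATM and MDC1. All but RAD54B had fallen further in HS578T, or in HS578T alone. The 7 lower were PARP1 (-0.31 ± 0.06, adjusted p = 0.00173), APEX1, UNG, BLM, MSH3, OGG1 and LIG4. The higher values of BRCA1, BRIP1 and RAD54B held in all 15 alternative settings and none of the 7 lower ones did. Fewer lower values passed when any 1 library was left out. When it was an MDA-MB-231 library, fewer passed over all tested genes too. The median difference of all tested genes was then 0.04 to 0.05, against -0.06 in the main setting. That of the 48 was 0.09 to 0.10, against -0.0019.

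Beyond the 48, a list of 50 further repair genes had 49 tested. Of these 5 rose and 17 fell in MDA-MB-231 (10.2% and 34.7%, where 20.7% of all tested genes rose and 21.9% fell). In HS578T 11 rose and 19 fell (22.4% and 38.8%, where 28.6% of all tested genes rose and 22.1% fell). Medians of the list on the log2 scale were -0.11 and -0.08. RPA1, the large subunit of the protein that coats single-stranded DNA, had 189.6 and 189.9 TPM in siGpx1 and 92.7 and 93.4 TPM in control MDA-MB-231, and 194 and 209 TPM in siGpx1 and 68.7 and 67.0 TPM in control HS578T, log2 changes of 1.02 ± 0.04 and 1.62 ± 0.04. TDG, the thymine glycosylase, fell in both lines (-1.31 ± 0.07 and -0.86 ± 0.07), as did RFWD3, a ubiquitin ligase of recombination (-0.28 ± 0.05 and -1.10 ± 0.06). These 3 had the smallest p-values of the list, with adjusted p of at most 0.000173.

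Lists of genes of the dividing cell are given beside the repair genes. Of 25 genes of the G1/S transition and replication, 3 rose and 13 fell in MDA-MB-231, where 20.7% of all tested genes rose and 21.9% fell. In HS578T 3 rose and 14 fell, where 28.6% of all tested genes rose and 22.1% fell. The medians of this list were -0.11 and -0.19. The replicative helicase subunit MCM5 was at -0.93 ± 0.06 and -1.54 ± 0.05, the histone mRNA binding protein SLBP at -1.02 ± 0.05 and -1.12 ± 0.06, and the transcription factor E2F1 at -0.84 ± 0.06 and -0.58 ± 0.07. Of 20 mitotic genes, 8 rose and 6 fell in MDA-MB-231, where 20.7% of all tested genes rose and 21.9% fell. In HS578T 1 rose and 16 fell, where 28.6% of all tested genes rose and 22.1% fell. The mitotic medians were 0.08 and -0.36. TOP2A, the topoisomerase of mitotic chromosomes, was at -1.36 ± 0.03 and -1.89 ± 0.04, CDC20, which activates the anaphase ligase, at -0.34 ± 0.04 and -1.12 ± 0.04, and the proliferation marker MKI67 at -0.14 ± 0.04 and -0.92 ± 0.04. Their part in the repair genes' changes was not tested. In bulk libraries, fewer cells in a phase and less RNA per cell cannot be told apart.

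Genes known to be induced after DNA damage were listed beside them. Of 18, 4 rose and 2 fell in MDA-MB-231 (22.2% and 11.1%, where 20.7% of all tested genes rose and 21.9% fell). In HS578T 8 rose and 3 fell (44.4% and 16.7%, where 28.6% of all tested genes rose and 22.1% fell). The medians were -0.01 and 0.15. PLK2, a polo-like kinase, rose by 0.69 ± 0.04 and 0.70 ± 0.04 on the log2 scale, the death receptor gene TNFRSF10B by 0.28 ± 0.04 and 0.63 ± 0.04, and the stress gene GADD45B by 0.42 ± 0.08 and 1.04 ± 0.07. CDKN1A, a cell cycle inhibitor named here after its values were seen, fell in both lines (-0.79 ± 0.06 and -0.80 ± 0.09, adjusted p = 3.28e-08 and 1.11e-06).

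**Figure D3:**
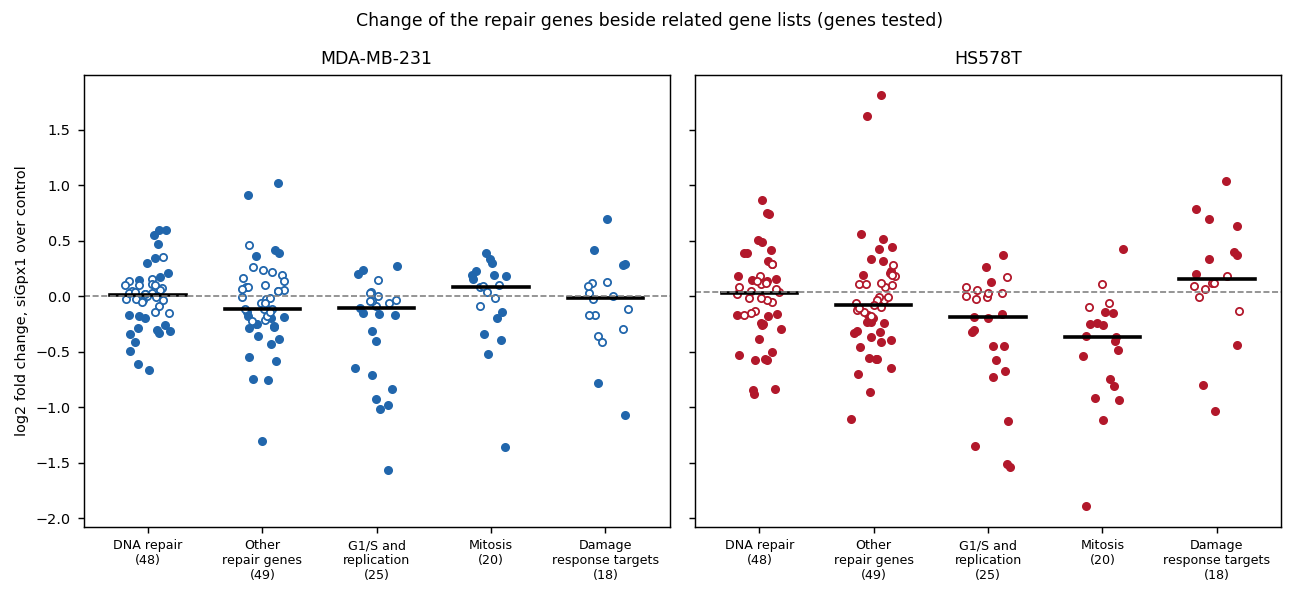
Log2 fold change (siGpx1 over control) of each tested gene of the 48 repair genes and of 4 further lists, in MDA-MB-231 (left) and HS578T (right); filled points passed at an adjusted p under 0.05, the bar is the list median and the dashed line the median of all tested genes. The repair genes' medians of 0.01 and 0.03 lie near the dashed lines, and the mitotic median is 0.08 in MDA-MB-231 and -0.36 in HS578T.

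Without depletion the lines differed in most of these genes. Of the 48, 21 were higher and 20 lower in control MDA-MB-231 than in control HS578T (43.8% and 41.7%, 85.4% together, where 81.6% of all tested genes passed), and 43% of all tested genes were higher and 38.6% lower. On log2 TPM the median of all genes in this comparison was 0.17 to 0.18, against 0.05 on TMM-scaled counts. These libraries also serve as the controls of the depletion comparisons. Of 12 recombination genes 7 were higher and 3 lower in MDA-MB-231, of 10 Fanconi genes 6 and 2, and all 3 mismatch genes were higher. Of 9 damage sensors 1 was higher and 8 lower, and of 5 end joining genes 0 were higher and 4 lower, 1 of which, XRCC6, was called at -0.12 on the log2 scale (adjusted p = 0.024) and was at 0.01 on log2 TPM, which did not pass. UNG had 103 and 110.0 TPM in MDA-MB-231 controls and 25.9 and 25.8 TPM in HS578T controls, 3.70-fold higher in MDA-MB-231 (log2 difference 1.89 ± 0.07, adjusted p = 3.47e-13). XRCC1 had 26.5 and 25.1 TPM in MDA-MB-231 controls and 75.0 and 77.4 TPM in HS578T controls, 3.25-fold lower in MDA-MB-231 (-1.70 ± 0.08, adjusted p = 1.46e-11). FANCE was 3.01-fold higher (38.6 and 38.9 TPM in MDA-MB-231 controls and 10.6 and 12.8 TPM in HS578T controls) and CHEK2 2.52-fold lower (13.2 and 14.1 TPM in MDA-MB-231 controls and 29.3 and 33.4 TPM in HS578T controls). PRKDC had 83.5 and 78.0 TPM in MDA-MB-231 controls and 148 and 146 TPM in HS578T controls and was lower in MDA-MB-231 (adjusted p = 9.27e-13). BARD1, RAD54L, FANCA, FANCF, OGG1, LIG3 and LIG4 did not pass, with log2 differences between -0.15 and 0.21.

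The spread of levels among the 48 was wide in every group. In TPM, which counts per length, the median was 28.3 in siGpx1 MDA-MB-231, 29.2 in control MDA-MB-231, 24.6 in siGpx1 HS578T and 26.4 in control HS578T. XRCC6 was the highest in each group, at a mean of 535, 525, 523 and 519.9 TPM, and with XRCC5 it made up 31.3 to 38.0% of the summed TPM of the 48. The lowest was POLQ in siGpx1 MDA-MB-231 (6.67 TPM), FANCF in control MDA-MB-231 (8.14 TPM) and FANCM in siGpx1 and control HS578T (4.87 and 5.70 TPM).

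**Figure D4:**
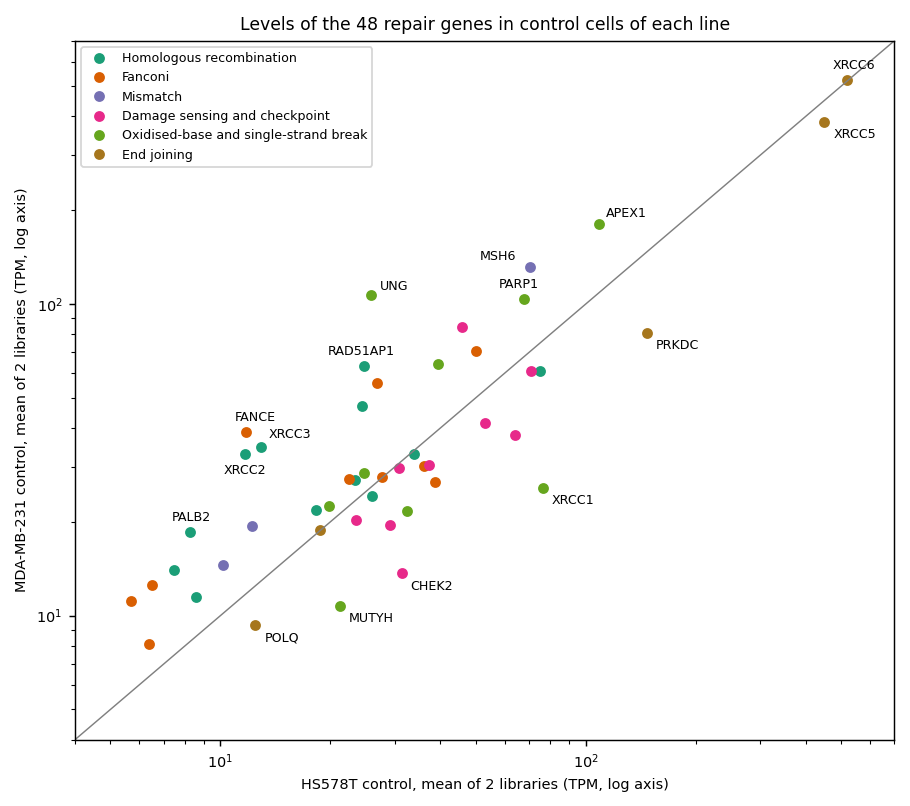
Mean TPM of each repair gene in control MDA-MB-231 (vertical, log axis) against control HS578T (horizontal, log axis), 2 libraries each, coloured by repair group; the line marks equal levels. UNG, FANCE, XRCC2 and RAD51AP1 lie above the line and XRCC1, CHEK2, MUTYH and PRKDC below it.

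The 7-base sequences GGGCATC and GGCATCA were looked for in 3′ UTRs because, in earlier results of these data, genes that hold them had lower values after depletion. Both lie in GGGCATCA, and they were looked for in GENCODE 29 transcripts of the repair genes. They were found in 4 of 48 (8.3%), against 14.0% of 13073 tested genes with a searched 3′ UTR. Sites of 3 of these genes are shown because each of the 3 passed the test in at least 1 line, with the matching bases in capitals, 5′ to 3′ along the transcript.
TP53BP1: ctttattctgtGGCATCAttcccaaaagg
TP53BP1: tcccttcctctGGCATCActgatccctgc
RAD50: tgtggataactGGGCATCtatctgcactt
LIG3: ctgatgaacgtGGGCATCAgaggccagtag
LIG3: tgctgctggctGGCATCAagcagaggtca
These lie in the 3′ UTR exons on GRCh38, not the build of the files, at chr15:43407048-43407076 (TP53BP1, minus strand), chr15:43406644-43406672 (TP53BP1, minus strand), chr5:132646282-132646310 (RAD50, plus strand), chr17:35005477-35005506 (LIG3, plus strand), chr17:35007462-35007490 (LIG3, plus strand).

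Of the 4 genes with a match, 0 fell in MDA-MB-231 and 1 in HS578T (0% and 25.0%). Of all searched genes with a match 44.0% and 43.5% fell, and of all searched genes 22.7% and 23.0%. RAD50 rose in both lines, and LIG3, which has the only whole 8-base match, was at -0.01 ± 0.07 in MDA-MB-231 and 0.19 ± 0.07 in HS578T. TP53BP1, with a pair of sites, was at -0.0038 ± 0.05 in MDA-MB-231 and fell in HS578T (-0.18 ± 0.05). The 4 genes had median log2 changes of 0.02 in MDA-MB-231 and 0.13 in HS578T. Over all searched genes the 1829 with a match had medians of -0.20 and -0.18, and the 11244 without had 0.01 and 0.07. All 9 repair genes that fell in both lines had a searched 3′ UTR with neither sequence.

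Promoters were searched for the E2F-type sequences TTTCCCGC and TTTGGCGC, on both strands, in 250 bases before to 50 after the gene start (RefSeq, GRCh38.p14). E2F factors switch on genes for S phase. Of 42 repair genes in that table, 6 had at least 1 (14.3%), against 3.6% of the tested genes in the table and 2.3% of all 27305 promoters of that length. They are shown for the genes in which the data gave a call or a near miss, in capitals, on the gene's strand, with the reverse complement where it was found so.
FANCC (chr9:95317737-95317766, minus strand): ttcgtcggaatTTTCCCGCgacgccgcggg
FANCD2 (chr3:10026424-10026453, plus strand): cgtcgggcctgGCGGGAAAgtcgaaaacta
MSH3 (chr5:80654534-80654563, plus strand): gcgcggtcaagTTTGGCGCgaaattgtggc
MSH6 (chr2:47783137-47783166, plus strand): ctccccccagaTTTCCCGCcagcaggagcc
FANCC and MSH6 rose in both lines, MSH3 fell in MDA-MB-231 and FANCD2 passed in neither. XRCC2 and XRCC6, the others with a match, passed in neither. None of the 8 repair genes that fell in both lines and are in the table had these letters in the window. Only these exact sequences were sought, so variant E2F sites would be missed. Other sequences searched were TTTGAA or TTCGAA (16.7% of the 42, against 11.1% of tested genes), CCAAT (52.4% against 36.7%) and GGGCGG (78.6% against 69.2%). TTTGAA was found in 6 genes, of which BRIP1 and POLQ fell in both lines and FANCC rose in both. The part of these sequences in the changes was not tested.

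Exons of 16 of the 48 overlap another listed gene in GENCODE 29, and the sources used here do not say that counting used strand, so reads of the pairs cannot be told apart. The longest overlaps are those of LIG3 with RFFL (3754 bases), TP53BP1 with TUBGCP4 (3067), RAD54B with FSBP (2891), MSH6 with FBXO11 (1644), XRCC3 with KLC1 (1452) and FANCA with ZNF276 (1402). MUTYH shares 330 bases with TOE1, which was at -0.22 and 0.01 on the log2 scale in MDA-MB-231 and HS578T (adjusted p = 0.0467 and 0.958). FANCI shares 431 bases with POLG, which was at -0.12 and -0.25 on the log2 scale in MDA-MB-231 and HS578T (adjusted p = 0.128 and 0.00512).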

How the data were processed

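Counts came from 8 gene tables, 1 per library. The expected counts and TPM values, as deposited by the authors, are RSEM estimates. The submitters' processing notes name FastQC, RSEM 1.2.12 and build hg19. No aligner, trimming, strand setting or annotation release is named there. The estimated counts share out reads that fit several genes; 94.7 to 94.9% of those above 0 were exactly whole at the 2 decimals deposited, and all were rounded. The deposited TPM values are used for levels.

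Genes were kept by filterByExpr over the 4 groups, scaled by TMM and modelled with 1 mean for each group (8 libraries, leaving 4 residual degrees of freedom). The test was edgeR's quasi-likelihood F test, its p-values adjusted by Benjamini-Hochberg over 14249 genes and called at an adjusted p under 0.05. The standard error is the size of the log2 change divided by root F. The members, lists and 7-base sequences were chosen with earlier results of these data known. All 48 genes could be named; values of every library are given for GPX1, for the 3 genes with the smallest p in each repair group, for genes called in both lines with an absolute log2 change of at least 0.5 in each, for genes whose difference between lines passed at 0.5 or more, and for others chosen after their values were seen. From each further list the 3 genes with the smallest p are named, and CDKN1A was added after its values were seen.

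The fit was tested on simulated counts, with a mean for each gene shared by both lines and 50 genes changed by each size. It recovered 52% of 1.25-fold changes in MDA-MB-231 and 56% in HS578T. Of 1.5-fold changes it recovered 90% and 92%. The changed genes had a mean of at least 50 counts, and the spread was drawn from its fitted trend. Far fewer genes were changed than the 42.6% and 50.7% called in MDA-MB-231 and HS578T, so recovery in the data may differ. As alternatives, DESeq2 and its size factors within edgeR were tried, as were no filter, a stricter filter (5 CPM in 2 libraries), each line alone, the replicate number as a block, limma on log2(TPM + 1) and log2(TPM + 0.1), and each library left out. 3′ UTRs of at least 30 bases were taken from GENCODE 29, joined by accession or symbol. Software was R 4.3.3, edgeR 4.0.16, limma 3.58.1, DESeq2 1.42.0, Python 3.11.15, pandas 2.3.3 and matplotlib 3.10.9. Some results are not reported here.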

Additional observations from a re-analysis of the deposited data

Results flagged for a closer look

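In 14 repair genes the effect of depletion differed between the lines by the test of the difference itself (change in MDA-MB-231 minus change in HS578T, edgeR, quasi-likelihood, p adjusted over all genes tested). The difference on the log2 scale was 0.36 for BRCA1, 0.38 for BRIP1, 0.50 for BARD1, 0.39 for POLQ, 0.32 for ATM and 0.21 for MDC1, which had the more negative change in HS578T. RAD54B, with changes of opposite sign, had 0.47. It was -0.31 for PARP1, -0.28 for APEX1, -0.41 for UNG and -0.42 for BLM, which had the more positive change in HS578T, and -0.32 for MSH3, -0.38 for OGG1 and -0.37 for LIG4, which fell in MDA-MB-231. Their adjusted p-values ran from 0.00173 to 0.0488. With a library left out, the difference of BARD1 did not pass without HS578T control replicate 2, HS578T siGpx1 replicate 1 or MDA-MB-231 siGpx1 replicate 1, that of POLQ without HS578T control replicate 1 or MDA-MB-231 siGpx1 replicate 1, that of ATM without HS578T control replicate 1 and that of MDC1 without HS578T control replicate 2. That of PARP1 did not pass without MDA-MB-231 control replicate 1 or either siGpx1 replicate of that line, that of UNG without MDA-MB-231 control replicate 2 or either siGpx1 replicate of that line, and that of APEX1 without any 1 of the 4 MDA-MB-231 libraries. The least stable were MSH3, which passed in 0 of 15 alternative settings, OGG1 in 1, BLM in 3 and LIG4 in 4. Of 20 mitotic genes, 18 had a higher and 0 a lower value of the same difference, with a median of 0.45. Of all tested genes, 6.32% had a higher and 10.7% a lower value. The part of the mitotic genes' difference in the values of the 14 repair genes was not tested.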

How the results depend on the processing

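Rises in HS578T, 15 in the main setting, numbered 8 with DESeq2, 9 with the line fitted alone, 9 with limma on log2(TPM + 1), 8 with log2(TPM + 0.1), and 9 to 14 with 1 library left out. Rises in MDA-MB-231, 9, numbered 14 with the stricter filter and 8 to 11 with 1 library left out. Falls in MDA-MB-231, 13, numbered 5 with DESeq2 and 5 to 15 with 1 library left out, and falls in HS578T, 16, numbered 13 to 17. Differences between the lines on the higher side, 7, numbered 4 with limma on log2(TPM + 0.1) and 5 to 9 with 1 library left out. On the lower side, 7, they numbered 4 with DESeq2 size factors in edgeR, 1 with DESeq2, 2 with the stricter filter, 3 with limma on log2(TPM + 1), 3 with log2(TPM + 0.1), and 0 to 4 with 1 library left out. Over all tested genes, rises in HS578T numbered 4074 in the main setting and 2871 with DESeq2. They numbered 3188 of 13225 with the line alone, and 3367 and 3236 with the limma fits. Falls in MDA-MB-231 numbered 3116, against 1937 with DESeq2. Rises there numbered 2950 of 14249, against 3652 of 11924 with the stricter filter. Lower differences numbered 1528, against 543 to 1000 in the full-library settings named. Higher ones numbered 900, against 928 with log2(TPM + 0.1). The causes were not tested. Leaving out a library leaves 1 in its group, assumed to vary like the others, and it also moved the values of all genes. Without any 1 MDA-MB-231 library, the median log2 change of all tested genes in that line was 0.03 to 0.04, against 0 in the main setting. The median difference between the lines over all tested genes was then 0.04 to 0.05, against -0.06. Counts between the control groups stayed within 1.5 times. Many depletion calls described above as lost without a library were also lost with DESeq2. In HS578T these were BRCA2, RAD51C, RAD54B, BLM, FANCF and MRE11A. In MDA-MB-231 they were BRCA1, BARD1, BRIP1, FANCF, FANCM, OGG1, MUTYH and LIG4. Those of PMS2 and XRCC1 in HS578T and of FANCG in MDA-MB-231 were kept with DESeq2. Over GPX1 and all 48 genes in the 4 comparisons, 3038 values were recomputed. Of these, 2727 kept their side of the threshold, 250 no longer passed, 59 newly passed and 2 changed sign. Both are the difference of XRCC6 between control MDA-MB-231 and control HS578T, -0.12 on counts and 0.0149 with limma on both log2(TPM + 1) and log2(TPM + 0.1). By the labels, same-numbered libraries share only a number. Their deviations from the group means correlated at 0.05 in MDA-MB-231 and -0.03 in HS578T. With 2 libraries per group, these values cannot show whether the libraries were paired. With the replicate block, 9 rose and 13 fell in MDA-MB-231 and 15 rose and 16 fell in HS578T, and the differences numbered 7 higher and 5 lower. With 2 libraries per group, a gene that did not pass is not shown to be unaffected.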
